A study of Mus musculus with 12 samples.

Results

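Tcf7, Lef1, Satb1 and Tox encode 4 transcription regulators of T cells, and they were described here by gene name in the table of read counts, as 4 of its 54532 entries. All 4 had enough counts to be tested in every subset. The study sequenced total RNA from sorted CD4 T cells of the mouse, in 12 libraries, 3 from each of 4 subsets. Every subset came from pooled spleen and lymph node of untreated wild-type C57BL/6 mice that carry a Foxp3-GFP reporter and have a polyclonal T cell repertoire. Anergic cells, which had met antigen but respond poorly to it, were sorted as CD44high cells without FOXP3 with CD73 and FR4 both high and NRP1 present. Treg cells, the regulatory cells, were sorted on FOXP3 and CD25. Teff cells, the effector group, were CD44high cells without FOXP3 that had low CD73 and low FR4. Naive cells were sorted on low CD44. Whether the replicates of a subset are separate animals is not stated in the labels, so a p-value here reflects the scatter of these libraries, which may be technical.

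Tcf7 encodes TCF1, and Lef1 encodes its close relative LEF1. Both bind DNA through an HMG box, act with beta-catenin or with repressors of the TLE family, and are needed early in thymic T cell development and for keeping mature T cells in naive, memory and follicular helper states. Satb1 encodes a protein that organises chromatin loops, is abundant in thymocytes and naive T cells, and is known to be held low in regulatory cells by FOXP3. Tox encodes another HMG-box protein, needed for the CD4 lineage in the thymus and best known in the periphery for maintaining persistently stimulated, exhausted CD8 T cells.

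The related genes share enough coding sequence to raise the question of whether their reads could be confused, so the most alike stretch of 120 coding bases is shown for 2 pairs. For Tcf7 and Lef1 this stretch lies in the HMG box and runs over an exon junction, at chr11:52256949-52257029 and chr11:52256809-52256847 (minus strand) for Tcf7 and at chr3:131194707-131194787 and chr3:131200295-131200333 (plus strand) for Lef1. The sequences come from GENCODE transcripts on GRCm38, with capitals marking the bases that differ within the pair.
Tcf7: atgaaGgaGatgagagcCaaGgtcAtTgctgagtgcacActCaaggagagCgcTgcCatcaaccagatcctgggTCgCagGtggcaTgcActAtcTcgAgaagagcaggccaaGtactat
Lef1: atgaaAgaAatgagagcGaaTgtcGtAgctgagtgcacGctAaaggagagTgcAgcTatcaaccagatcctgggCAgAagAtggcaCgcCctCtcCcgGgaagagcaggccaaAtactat
Of these bases 99 (82.5%) were identical. The other pair is Tox, at chr4:6722196-6722315 (minus strand), and its paralog Tox2, at chr2:163315845-163315964 (plus strand), again at the HMG box.
Tox: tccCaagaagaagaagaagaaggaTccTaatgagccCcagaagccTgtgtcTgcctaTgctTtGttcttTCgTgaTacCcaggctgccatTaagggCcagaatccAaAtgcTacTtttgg
Tox2: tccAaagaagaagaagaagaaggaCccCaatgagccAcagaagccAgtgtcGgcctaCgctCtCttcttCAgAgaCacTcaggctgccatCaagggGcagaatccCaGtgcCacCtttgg
Here 100 bases (83.3%) were identical. Over whole transcripts, the longest identical run was 18 bases for Tcf7 with Lef1, 20 for Tox with Tox2 and at most 24 in the 9 pairs compared (Tox with Tox3). Reads were 50 bases long on each end, so no full read is shared between these transcripts without a mismatch.

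Libraries held 6909035 to 9527897 counts, and 13393 entries passed the filter on low counts. The marker genes of the sorts largely followed the labels, but Foxp3 was higher in Anergic than in Teff cells, both sorted without FOXP3. Foxp3 had 15 to 20.3 CPM in Anergic libraries, 531 to 562 in Treg, 0.372 to 1.02 in Teff and 1.21 to 1.61 in Naive libraries. CPM here means counts relative to library size after TMM scaling, edgeR's correction for differences in library composition. Nt5e, which encodes CD73, had 232 to 278 CPM in Anergic libraries against 52.9 to 60.4 in Teff libraries. Of the 11 follicular helper markers all had counts in Anergic libraries, where they summed to 874 to 1009 CPM. That sum was 257 to 269.5 in Treg, 361 to 379.5 in Teff and 133 to 149 in Naive libraries, with Il4 at 0 counts in Treg and Cxcl13 at 0 in Naive cells. The 7 NK and innate-like markers summed to 23.4 to 34.5 CPM in Anergic, 0.887 to 1.41 in Treg, 182 to 248 in Teff and 0.414 to 0.991 in Naive libraries. Zbtb16, which encodes PLZF, was the highest of them (23.1 ± 5.17 CPM in Anergic and 99.9 ± 20.3 in Teff cells). Ncr1 and Klra8, which mark NK cells, had 0 counts in Anergic libraries and at most 1 count in Teff libraries. The part of such cells in the results below was not tested. In RNA from sorted populations, fewer cells of a type and less RNA per cell cannot be told apart.

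Differences between these subsets were common, so a call on 1 gene is read against that background. A gene was called higher or lower where the Benjamini-Hochberg adjusted p of edgeR's quasi-likelihood test, taken over all 13393 tested genes, was under 0.05. Between Anergic and Teff cells all 4 genes were called, Tcf7 and Tox higher and Lef1 and Satb1 lower. In that comparison 26.6% of all tested genes were called, 13.9% higher and 12.7% lower (1864 and 1702 genes, or 1218 and 2276 with scaling by total counts alone). All 4 genes were also called between Anergic and Treg cells, in the same directions, where 31% of genes were called, 15.6% higher and 15.3% lower (2096 and 2054 genes, or 1324 and 3027 by total counts). Between Anergic and Naive cells Tox was higher and the other three genes were lower, where 46.2% of genes were called, 25% higher and 21.3% lower.

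In Treg against Teff cells 2 of the 4 were called, Tox higher and Tcf7 lower, where 29.1% of genes were called, 15% higher and 14.1% lower. In Treg against Naive cells Tox was higher and the other three were lower, where 32.8% of genes were called, 19% higher and 13.9% lower (2538 and 1858 genes, or 2925 and 1126 by total counts). In Teff against Naive cells 3 of the 4 were called, all lower, where 34.9% of genes were called, 19.2% higher and 15.7% lower. Each subset enters 3 of the 6 comparisons, so these counts share libraries. Of all tested genes 3.4% were called in all 6 comparisons, as Tcf7 was, and 10.6% in 5 of them, as Lef1, Satb1 and Tox were.

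The libraries of 1 subset lay wholly above or below those of the other for all 4 genes in 5 of the comparisons and for 3 of them, all but Tox, in Teff against Naive cells. Among all tested genes such a separation held for 37.8% in Anergic against Teff cells, 43.4% in Anergic against Treg cells and 53.3% in Anergic against Naive cells. It held for 41.6% in Treg against Teff cells, 44.9% in Treg against Naive cells and 45.2% in Teff against Naive cells.

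**Figure D1:**
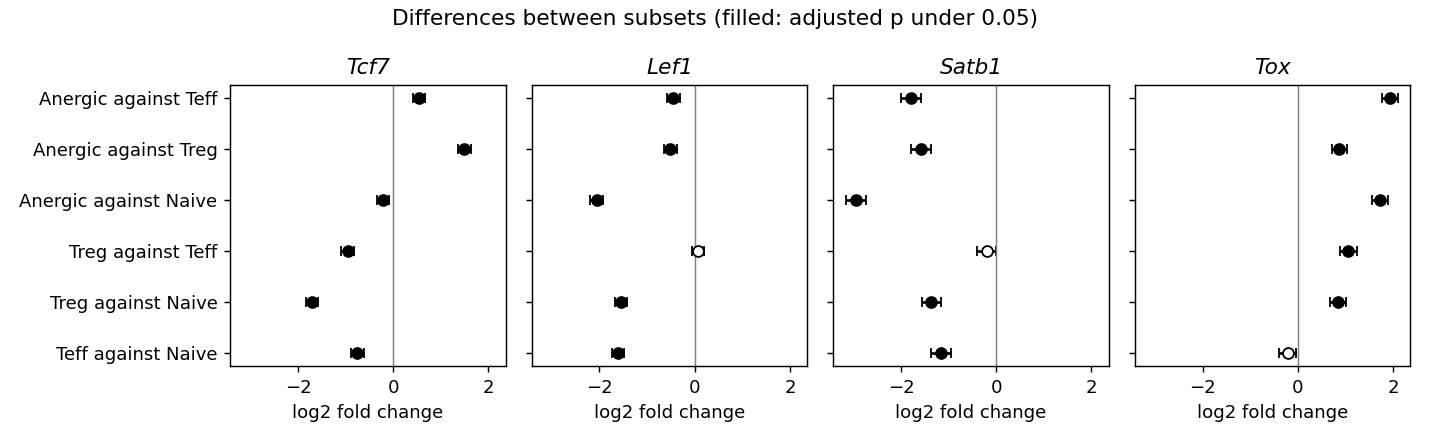
Log2 fold change of Tcf7, Lef1, Satb1 and Tox (horizontal axes) in each of the 6 comparisons, first-named subset over the second, with 95% intervals. Filled points passed an adjusted p under 0.05; the open ones are Lef1 and Satb1 in Treg against Teff cells and Tox in Teff against Naive cells.

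Tcf7 was highest in Naive cells, close behind in Anergic cells, lower in Teff cells and lowest in Treg cells. It had 1550, 1642 and 1686 CPM in the 3 Anergic libraries and 609.3, 557.5 and 561.5 in the Treg libraries. It had 1060, 1130 and 1162 CPM in Teff libraries and 1862, 1857 and 1922 in Naive libraries. No library of any subset overlapped with one of another subset, and Tcf7 was called in each of the 6 comparisons.

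Anergic cells had 1626 ± 69.3 CPM of Tcf7 and Treg cells 576 ± 28.8 (SD, n = 3 each, as throughout), a log2 difference of 1.5 (SE 0.0639, adjusted p = 7.64e-15), or 2.82-fold. Teff cells had 1117 ± 52.3 CPM, which put Anergic cells 1.46-fold above them (log2 0.54, SE 0.0626, adjusted p = 2.95e-07). The distance to Naive cells, which had 1880 ± 36.0 CPM, was small (log2 -0.21, SE 0.0623, adjusted p = 0.00788). Treg cells lay below both Teff cells (log2 -0.95, SE 0.0633, adjusted p = 1.61e-11) and Naive cells (log2 -1.71, SE 0.0643, adjusted p = 3.15e-16). Teff cells lay below Naive cells by less (log2 -0.75, SE 0.0627, adjusted p = 8.39e-10).

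Lef1 did not follow Tcf7. It was lower in Anergic, Treg and Teff cells than in Naive cells, and it was lowest in Anergic cells. The Anergic libraries had 202.7, 225.5 and 233.4 CPM, the Treg libraries 313.9, 312.3 and 316.6, the Teff libraries 296.4, 293.4 and 310.4, and the Naive libraries 922.9, 881.8 and 946.6. The Naive libraries stood far above the rest, and the Anergic libraries lay below all others. The 4 markers of naive cells, summed, were also lowest in Anergic libraries, at 421 to 537 CPM. That sum was 964 to 1069 CPM in Treg, 795 to 810 in Teff and 1377 to 1539 in Naive libraries, with no marker at 0. Its members did not all follow it. In Anergic against Teff cells 3 were called lower and 1, Ccr7, higher, where 13.9% of all genes rose and 12.7% fell. In Teff against Naive cells 3 were lower and 1, Il7r, higher, where 19.2% of all genes rose and 15.7% fell. The part of naive-like cells in the Lef1 and Satb1 levels was not tested.

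Anergic cells averaged 220.5 ± 16 CPM of Lef1 against 917 ± 32.8 in Naive cells, and were 4.16-fold lower (log2 -2.06, SE 0.0651, adjusted p = 8.04e-18). Treg cells averaged 314 ± 2.20 CPM (log2 -1.54 against Naive cells, SE 0.0637, adjusted p = 1.77e-15). Teff cells averaged 300.1 ± 9.11 CPM (log2 -1.61 against Naive cells, SE 0.0639, adjusted p = 1.02e-15). Anergic cells were also below Treg cells (log2 -0.51, SE 0.0639, adjusted p = 8.4e-07) and below Teff cells (log2 -0.44, SE 0.0641, adjusted p = 7.62e-06). Between Treg and Teff cells Lef1 did not pass the threshold, at a log2 difference of 0.07 with a 95% interval from -0.06 to 0.20 (adjusted p = 0.483), although the Treg libraries all lay just above the Teff libraries.

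**Figure D2:**
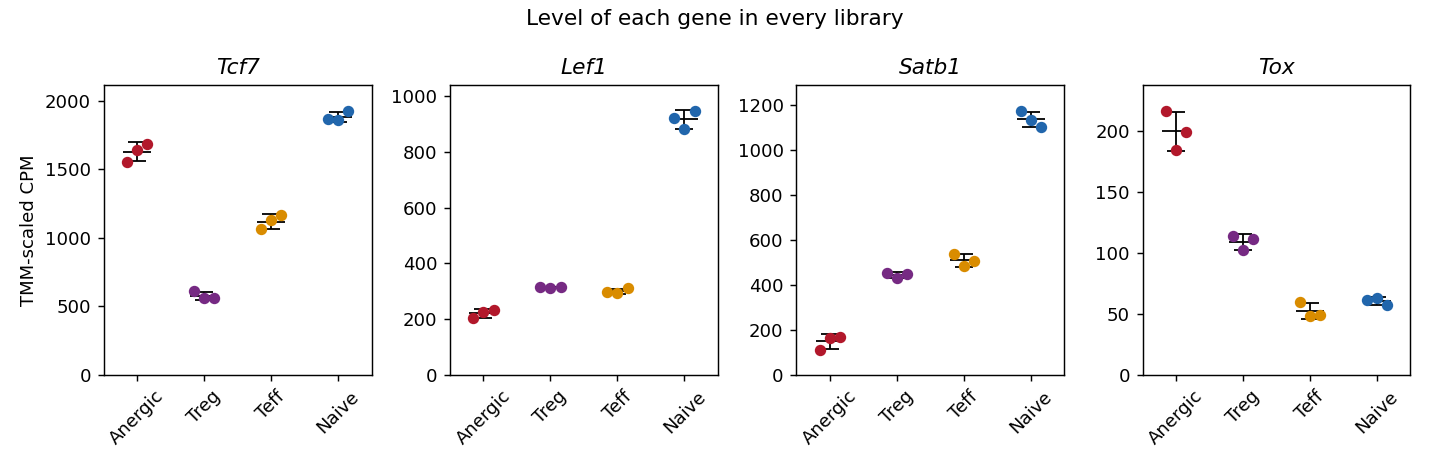
TMM-scaled CPM of Tcf7, Lef1, Satb1 and Tox (vertical axes, linear and from 0) in each library of the Anergic, Treg, Teff and Naive subsets. Points are libraries and bars are the mean ± SD of 3 libraries. Naive libraries are highest for Tcf7, Lef1 and Satb1, while Anergic libraries are highest for Tox, at 184.2 to 216.2.

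The balance of the 2 related factors differed between the subsets, and it can be read within a library, where no scaling between libraries is needed. Lef1 reads made up 11.6%, 12.1% and 12.2% of the counts of both genes in the 3 Anergic libraries, and 34.0%, 35.9% and 36.1% in the Treg libraries. They made up 21.9%, 20.6% and 21.1% in Teff libraries and 33.1%, 32.2% and 33.0% in Naive libraries. Each share rested on 6866 to 22103 counts, and the exact 95% intervals were 11.1% to 12.7% over the Anergic and 31.6% to 33.8% over the Naive libraries, for counting error only. Anergic and Naive cells thus had Tcf7 levels that differed by 1.16-fold, but their Lef1 shares did not overlap. Treg and Naive cells differed 3.26-fold in Tcf7, and their Lef1 shares lay close together (Treg shares all above the Naive ones). The log2 ratio of Lef1 to Tcf7 counts averaged -2.88 ± 0.0447 in Anergic, -0.87 ± 0.0727 in Treg and -1.90 ± 0.0541 in Teff libraries, and -1.04 ± 0.0335 in Naive libraries. The 4 subsets differed in it by an exact permutation test of the F statistic (p = 6.5e-05, also after adjustment over 6 ratios), the smallest p that 369600 assignments of 12 libraries can give. Annotated gene lengths are the same in each subset and drop out of such comparisons. Whether the subsets use different transcripts of these genes was not tested.

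**Figure D3:**
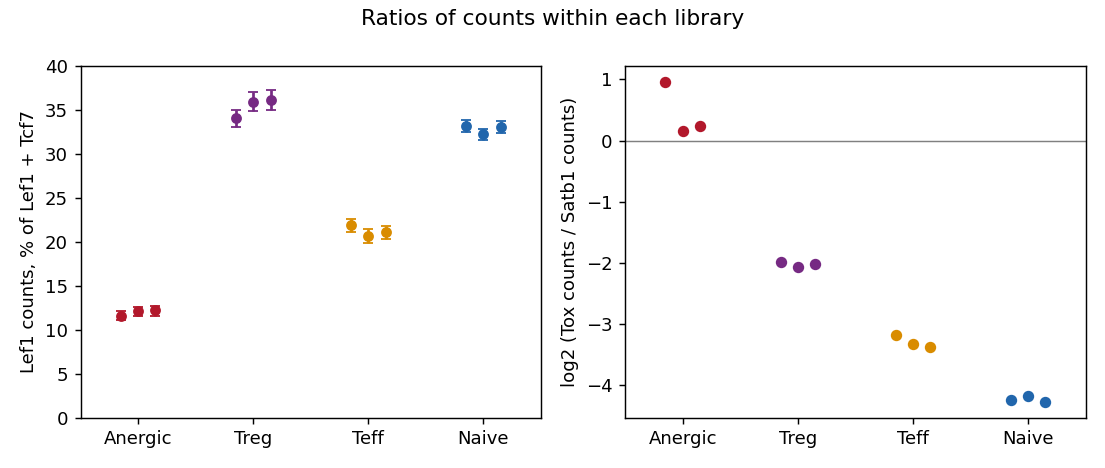
Left, Lef1 counts as a percentage of Lef1 and Tcf7 counts together in each library, with exact 95% binomial intervals (vertical axis from 0); right, log2 ratio of Tox to Satb1 counts in each library. The Anergic libraries lie lowest on the left, at 11.6% to 12.2%, and highest on the right, where they are the only libraries above 0.

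The other family members were scarce. Tcf7l1 averaged 0.441 ± 0.232 CPM in Anergic, 3.34 ± 0.0825 in Treg and 0.797 ± 0.570 in Teff cells, and 2.19 ± 0.645 in Naive cells. Tcf7l2 averaged 0.520 ± 0.366 CPM in Anergic, 2.39 ± 0.556 in Treg and 0.692 ± 0.0532 in Teff cells, and 0.689 ± 0.479 in Naive cells. Both were higher in Treg than in Teff cells (Tcf7l1 log2 2.02, adjusted p = 0.000715; Tcf7l2 log2 1.78, adjusted p = 0.00489) and lower in Anergic than in Treg cells (log2 -2.86 and -2.16, adjusted p = 4.52e-05 and 0.00125). In no library did either have more than 34 counts.

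Satb1 was lowest in Anergic cells and highest in Naive cells, with Treg and Teff cells between them. It had 110.8, 164.4 and 168.9 CPM in the Anergic libraries and 451, 429.1 and 449.1 in the Treg libraries. It had 539.3, 482.7 and 507 CPM in the Teff libraries and 1173, 1134 and 1105 in the Naive libraries. All Anergic libraries lay below all others, and the first of them lay well below the other two Anergic libraries.

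The fall of Satb1 in Anergic against Naive cells was the largest difference of the 4 genes over the 6 comparisons, while against Teff cells Tox differed by more (log2 1.94). Anergic cells averaged 148 ± 32.3 CPM against 1137 ± 34.0 in Naive cells, 7.69-fold lower (log2 -2.94, SE 0.105, adjusted p = 6.44e-17). Teff cells averaged 509.7 ± 28.4 CPM, which put Anergic cells 3.45-fold below them (log2 -1.79, SE 0.102, adjusted p = 1.3e-12). Treg cells averaged 443 ± 12.1 CPM, and Anergic cells were 3.00-fold below them (log2 -1.58, SE 0.101, adjusted p = 9.06e-12). Without the first Anergic library these 3 differences were -2.77, -1.62 and -1.41, all still called. Treg cells were 2.57-fold below Naive cells (log2 -1.36, SE 0.0975, adjusted p = 5.46e-11), and Teff cells 2.23-fold below them (log2 -1.16, SE 0.0969, adjusted p = 8.82e-10).

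Treg and Teff cells were close in Satb1. Their log2 difference was -0.20 with a 95% interval from -0.40 to -0.002 (adjusted p = 0.127), although the Treg libraries all lay below the Teff libraries. This difference passed without the first Anergic library (log2 -0.21, adjusted p = 0.00652), without a low count filter (adjusted p = 0.0108) and in a fit of these 2 subsets alone (adjusted p = 0.00971). Over all 21 alternatives its adjusted p ran from 0.00652 to 0.268.

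Entries annotated inside or across Satb1 and Lef1 were looked at after the annotation and values were seen, since they can share reads with the genes. Gm36931, of the provisional class TEC on the same strand, covers 0.82% of the exon bases of Satb1 at chr17:51766643-51771443. It averaged 6.44 ± 1.40 CPM in Anergic, 24.7 ± 1.99 in Treg and 30.7 ± 7.23 in Teff cells, and 66.9 ± 11 in Naive cells. Gm6934, also TEC but on the opposite strand, covers the first annotated start of Satb1 at chr17:51832819-51834723. It averaged 3.27 ± 1.04 CPM in Anergic, 11.2 ± 1.55 in Treg and 9.86 ± 1.54 in Teff cells, and 22.1 ± 0.214 in Naive cells. The 2 entries were lower in Anergic than in Teff cells (Gm36931 log2 -2.26, adjusted p = 5.65e-10; Gm6934 log2 -1.59, adjusted p = 2.17e-06). Neither passed between Treg and Teff cells (adjusted p = 0.11 and 0.487), as Satb1 did not.

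Lef1 has the antisense entry Gm43352 over its first exon, at chr3:131109026-131112090 on the minus strand, which overlaps 13.7% of the exon bases of Lef1. It averaged 4.38 ± 0.401 CPM in Anergic, 4.92 ± 0.794 in Treg and 4.19 ± 0.951 in Teff cells, and 16.6 ± 1.47 in Naive cells. It was lower than in Naive cells in each of the other three subsets (log2 -1.92, -1.74 and -1.98 for Anergic, Treg and Teff cells, adjusted p = 1.3e-08, 6.49e-08 and 1.34e-08). Between Anergic and Teff cells its log2 difference was 0.07 (adjusted p = 0.863), where Lef1 itself was called lower. The sources used here do not give the strand setting of the counting. On the bases they share, reads of Lef1 or Satb1 and of an opposite-strand entry therefore cannot be told apart. For Satb1 and Gm6934 these are 0.673% of the exon bases of Satb1. Tox has the antisense entry Gm11802 over 3.42% of its exon bases, with at most 5 counts in a library, and Tcf7 shares no exon base with another annotated gene.

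**Figure D4:**
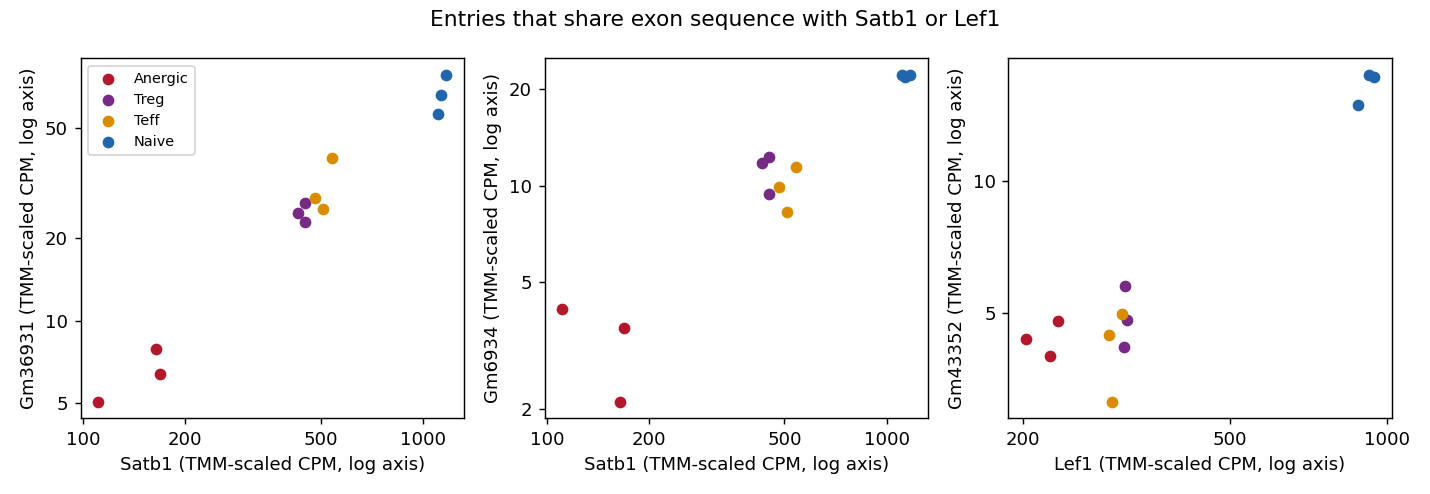
TMM-scaled CPM per library (log axes) of Gm36931 and Gm6934 against Satb1 and of Gm43352 against Lef1, with libraries coloured by subset. Naive libraries lie at the upper right of all 3 panels; Anergic libraries lie at the lower left of the 2 Satb1 panels, while Gm43352 overlaps between Anergic, Treg and Teff libraries.

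These opposite-strand entries cover 2 of the RefSeq starts of Lef1 and 1 of Satb1. The sequence upstream of the first such start of each gene is shown, where the only annotated exon is that of the opposite-strand entry. Both are RefSeq windows on GRCm38.p6 of 250 bases before the start, chr3:131110047-131110296 (plus strand) for Lef1 and chr17:51833291-51833540 (minus strand) for Satb1. No base is in capitals, since none matched a motif searched.
Lef1 upstream window: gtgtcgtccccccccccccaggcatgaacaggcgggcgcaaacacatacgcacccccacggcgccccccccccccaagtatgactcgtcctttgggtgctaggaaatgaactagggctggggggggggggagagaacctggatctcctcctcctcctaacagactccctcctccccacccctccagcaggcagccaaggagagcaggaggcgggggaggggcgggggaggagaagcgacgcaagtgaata
Satb1 upstream window: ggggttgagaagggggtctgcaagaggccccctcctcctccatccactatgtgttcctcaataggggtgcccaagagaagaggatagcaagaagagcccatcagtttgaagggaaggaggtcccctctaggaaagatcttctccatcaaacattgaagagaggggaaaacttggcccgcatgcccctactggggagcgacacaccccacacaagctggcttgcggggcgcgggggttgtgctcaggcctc
The Lef1 window had 66.4% G and C and the Satb1 window 58.0%, against a median of 52.4% over 32851 RefSeq promoters of that length. The motifs searched on both strands were CTTTGNT, the core bound by TCF and LEF proteins, and TGANTCA, bound by AP-1, and a TGANTCA match can begin within a CTTTGNT match. CTTTGNT was found in 16% of all promoters and TGANTCA in 6.75%. RefSeq gave promoters for Tcf7 (2 starts), Lef1 (4 starts) and Satb1 (5 starts) but held no entry for Tox. Of these 11 windows, 2 overlapping ones of Satb1 held CTTTGNT, and none held TGANTCA. The CTTTGNT match was the same in both, at -18 from one start and -148 from the other.

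Tox was highest in Anergic cells, intermediate in Treg cells and lower in Teff and Naive cells. It had 216.2, 184.2 and 199 CPM in the Anergic libraries and 114.1, 101.9 and 111 in the Treg libraries. It had 59.49, 48.09 and 48.83 CPM in the Teff libraries and 61.63, 62.58 and 57.07 in the Naive libraries. The Anergic libraries lay above all others and the Treg libraries above the Teff and Naive libraries, which overlapped.

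Anergic cells averaged 199.8 ± 16 CPM of Tox against 52.1 ± 6.38 in Teff cells, 3.83-fold higher (log2 1.94, SE 0.0824, adjusted p = 6.86e-15). Against Naive cells, at 60.4 ± 2.95 CPM, the Anergic level was 3.30-fold higher (log2 1.72, SE 0.0820, adjusted p = 1.6e-14). It was 1.83-fold above Treg cells, which averaged 109 ± 6.36 CPM (log2 0.87, SE 0.0770, adjusted p = 2.79e-09). Treg cells in turn were 2.09-fold above Teff cells (log2 1.06, SE 0.0836, adjusted p = 3.49e-10) and 1.80-fold above Naive cells (log2 0.85, SE 0.0833, adjusted p = 1.31e-08). Between Teff and Naive cells the log2 difference was -0.21 with a 95% interval from -0.40 to -0.03, and it did not pass (adjusted p = 0.0656). It did pass without the first Teff library (log2 -0.31, adjusted p = 0.00895) and with the replicate number fitted as a block. Over all 21 alternatives the adjusted p ran from 0.00895 to 0.281.

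Tox2, a related HMG-box gene that is prominent in follicular helper cells, shared the Anergic peak but not the rest of the order. It averaged 96.6 ± 13.7 CPM in Anergic, 9.10 ± 2.57 in Treg and 25.7 ± 2.04 in Teff cells, and 1.62 ± 0.980 in Naive cells. All 6 comparisons of Tox2 were called. It was higher in Anergic than in Teff cells (log2 1.91, adjusted p = 8.23e-11), in Treg cells (log2 3.39, adjusted p = 2.78e-14) and in Naive cells (log2 5.87, adjusted p = 1.34e-16). In Treg against Teff cells it was lower (log2 -1.48, adjusted p = 2.9e-07), where Tox was higher. The follicular helper marker list includes Tox2 and was also highest in Anergic cells, and the part of follicular helper cells in these Tox and Tox2 levels was not tested.

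Tox4, a broadly expressed member of the family, stayed within a narrow range, with 82.4 ± 3.37 CPM in Anergic, 71.2 ± 2.30 in Treg and 73.1 ± 1.78 in Teff cells, and 70.5 ± 4.67 in Naive cells. It was called higher in Anergic than in Treg cells (log2 0.21, adjusted p = 0.0189) and than in Naive cells (log2 0.23, adjusted p = 0.00866). Both calls were lost with scaling by total counts alone (adjusted p = 0.499 and 0.0809). The call against Treg cells was also lost without Anergic library 2 or Treg library 2 (adjusted p = 0.0791 and 0.0677), and that against Naive cells without Naive library 2 (adjusted p = 0.0675). Tox3 had 3 counts over all 12 libraries and was not tested.

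Among the 6 ratios of the 4 genes within a library, Tox to Satb1 had the widest range of subset means, while the F statistic was largest for Lef1 to Tcf7 (904, with 235 for Tox to Satb1). The log2 ratio of Tox to Satb1 counts averaged 0.45 ± 0.442 in Anergic, -2.02 ± 0.0463 in Treg and -3.29 ± 0.102 in Teff libraries, and -4.23 ± 0.0497 in Naive libraries. The Anergic spread came from the first library, at 0.96, with 0.16 and 0.24 in the other two. Each of the 6 ratios differed between the 4 subsets with the smallest exact permutation p that the design allows, 6.5e-05, and the groups of a ratio were not tested against each other in pairs. Satb1 over Lef1, the ratio that varied least, averaged -0.60 ± 0.237 in Anergic, 0.50 ± 0.0332 in Treg and 0.76 ± 0.0870 in Teff libraries, and 0.31 ± 0.0759 in Naive libraries.

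Levels of different genes can be set beside each other only per length, here CPM per kilobase of annotated exon. On that scale Tcf7 had 619 ± 26.4 in Anergic, 219.5 ± 11 in Treg and 426 ± 19.9 in Teff cells, and 716 ± 13.8 in Naive cells. Only 0.256% to 0.963% of 13289 genes with a length stood above it. Lef1 had 25.1, 35.8, 34.2 and 104 CPM per kilobase in Anergic, Treg, Teff and Naive cells, and Satb1 7.78, 23.3, 26.8 and 59.8. Tox had 26.3 ± 2.10 CPM per kilobase in Anergic, 14.3 ± 0.833 in Treg and 6.85 ± 0.838 in Teff cells, and 7.94 ± 0.387 in Naive cells. Per kilobase of exon Tox and Lef1 were thus about level in Anergic cells, but with the longest coding transcript as length Lef1 was above Tox there (63.3 against 50.4). In Treg, Teff and Naive cells Tox stood below the other three genes on both lengths, and in Anergic cells Satb1 did.

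The partners of TCF1 and LEF1 were examined as a list of 21 cofactors, of which 20 were in the table and 17 tested. In Anergic against Teff cells 2 rose and 5 fell, with a list median log2 of -0.01 against 0.00 for all tested genes, of which 13.9% rose and 12.7% fell. Without the first Anergic library 3 fell. Between Anergic and Naive cells 4 rose and 11 fell (median -0.31 against 0.01), where 25% of all genes rose and 21.3% fell. Between Treg and Naive cells 1 rose and 9 fell (median -0.25 against 0.00), where 19% of all genes rose and 13.9% fell. Tle3, a Groucho-type corepressor that binds TCF proteins, was the member that stood out in Anergic cells. It averaged 547 ± 37.5 CPM in Anergic, 263 ± 11.7 in Treg and 311 ± 3.5 in Teff cells, and 286 ± 6.17 in Naive cells. It was higher in Anergic than in Teff (log2 0.81, adjusted p = 3.17e-10), Treg (log2 1.05, adjusted p = 2.76e-12) and Naive cells (log2 0.94, adjusted p = 1.06e-11).

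Tle1 and Tle4, corepressors of the same family, did not share this peak. Tle1 averaged 1.42 ± 0.506 CPM in Anergic, 12.4 ± 2.90 in Treg and 3.07 ± 1.04 in Teff cells, and 15.1 ± 0.502 in Naive cells, and was lower in Anergic than in Naive cells (log2 -3.38, adjusted p = 1.91e-10). Tle4 averaged 76.4 ± 3.53 CPM in Anergic, 61.1 ± 3.79 in Treg and 117 ± 13.4 in Teff cells, and 114 ± 3.83 in Naive cells, and was lower in Anergic than in Teff cells (log2 -0.61, adjusted p = 1.06e-06). Ctnnb1, which encodes beta-catenin, was not called in any comparison, with means of 107 to 120 CPM. Bcl9, a beta-catenin coactivator, was higher in Anergic than in Teff cells (log2 0.73, adjusted p = 1.78e-05), and its relative Bcl9l was lower (log2 -0.78, adjusted p = 1.04e-09). Between Anergic and Treg cells 6 cofactors rose and 5 fell, which became 3 and 7 with scaling by total counts alone, and 15.6% of all genes rose and 15.3% fell there.

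**Figure D5:**
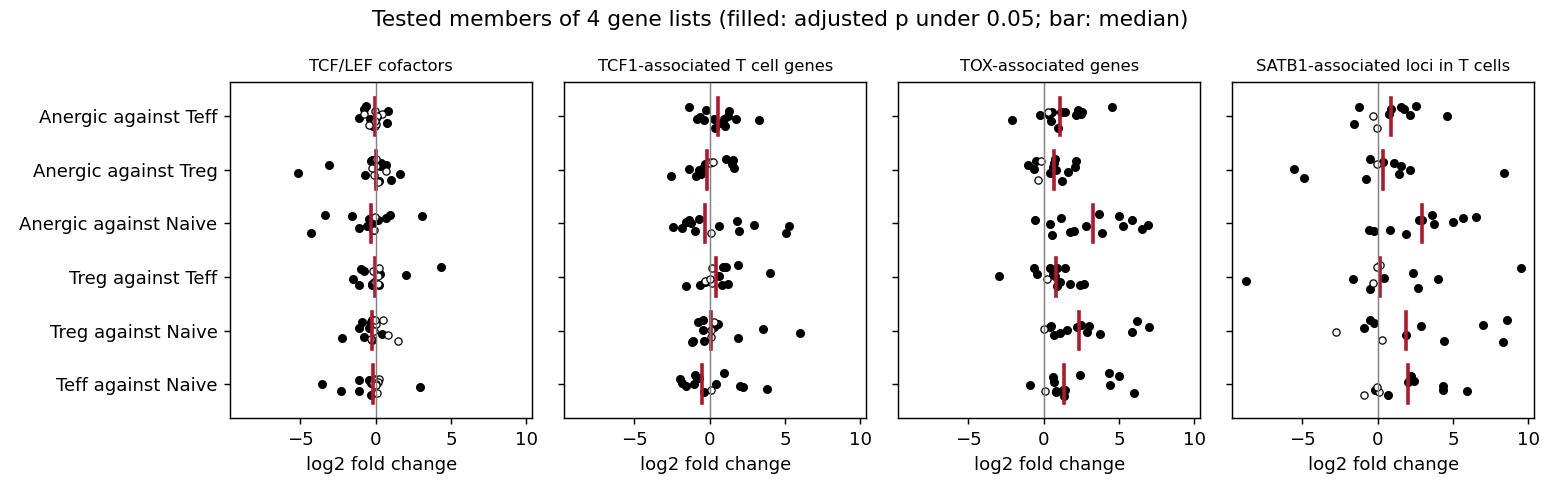
Log2 fold changes (horizontal axes) of the tested members of 4 gene lists in each of the 6 comparisons, first-named subset over the second; filled points passed an adjusted p under 0.05 and the red bar is the list's median. Cofactors of TCF and LEF proteins lie on both sides of 0, while the TOX-associated genes lie mostly above it in Anergic against Naive cells, where 13 of 14 rose.

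Of 10 feedback and target genes of Wnt signalling 4 were tested. Axin2, a negative feedback regulator of beta-catenin that TCF proteins drive, averaged 101 ± 11.4 CPM in Anergic, 43.9 ± 6.78 in Treg and 119 ± 8.43 in Teff cells, and 62.9 ± 1.01 in Naive cells. It was higher in Anergic than in Treg cells (log2 1.20, adjusted p = 3.61e-10) and than in Naive cells (log2 0.69, adjusted p = 1.33e-06). Against Teff cells it was called lower in Anergic cells, close to the threshold (log2 -0.24, adjusted p = 0.0479). That call was lost under 10 of 21 alternatives, 8 of them with 1 library left out, with adjusted p of 0.012 to 0.202 over all 21. Znrf3, a ubiquitin ligase that removes Wnt receptors, had its lowest level in Anergic cells, with 15.7 ± 0.646 CPM against 50.1 ± 0.893 in Treg and 32.0 ± 1.87 in Teff cells, and 67.1 ± 2.43 in Naive cells. It was lower in Anergic than in Naive cells (log2 -2.09, adjusted p = 8.21e-16). Rnf43, a ubiquitin ligase of the same family and function, had the opposite order. It averaged 121 ± 7.21 CPM in Anergic, 33.9 ± 5.92 in Treg and 59.7 ± 3.42 in Teff cells, and 11.5 ± 1.11 in Naive cells. It was higher in Anergic than in Teff (log2 1.02, adjusted p = 2.14e-09), Treg (log2 1.84, adjusted p = 1.15e-13) and Naive cells (log2 3.4, adjusted p = 1.28e-17). Over the list, 1 rose and 3 fell in Anergic against Teff cells (median log2 -0.44 against 0.00), where 13.9% of all genes rose and 12.7% fell. Between Anergic and Naive cells 2 rose and 2 fell (median -0.45 against 0.01), where 25% of all genes rose and 21.3% fell.

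Of 15 T cell genes tied to TCF1 in earlier work 14 were tested. Between Anergic and Teff cells 9 rose and 5 fell (median log2 0.56 against 0.00 for all genes), where 13.9% of all genes rose and 12.7% fell. Between Anergic and Naive cells 6 rose and 7 fell (median -0.31 against 0.01), where 25% of all genes rose and 21.3% fell. Slamf6, a SLAM receptor of memory-like and follicular helper cells, averaged 357 ± 19.3 CPM in Anergic, 114 ± 1.64 in Treg and 179 ± 5.25 in Teff cells, and 91.6 ± 8.12 in Naive cells (Anergic against Treg log2 1.65, adjusted p = 4.4e-15). Bcl6, the main transcription factor of follicular helper cells, was higher in Anergic than in Teff cells (log2 1.77, adjusted p = 3.72e-13).

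Of 15 TOX-associated genes, chiefly inhibitory receptors and TCR-induced factors, 14 were tested. In Anergic against Teff cells, where 13.9% of all genes rose and 12.7% fell, 11 rose and 2 fell (median log2 1.06 against 0.00), with 1 falling without Anergic library 1 or without Teff library 1. Between Anergic and Treg cells 9 rose and 3 fell, Nr4a1 and Ikzf2 among the fallen (median 0.66 against 0.00). There 15.6% of all genes rose and 15.3% fell. Between Anergic and Naive cells 13 rose and 1, Nr4a1, fell (median 3.25 against 0.01), where 25% of all genes rose and 21.3% fell. Pdcd1, the gene of the inhibitory receptor PD-1, averaged 126 ± 14.3 CPM in Anergic, 28.6 ± 3.56 in Treg and 21.05 ± 0.765 in Teff cells, and 3.85 ± 0.720 in Naive cells (Anergic against Teff log2 2.58, adjusted p = 1.25e-15). Cd160, another receptor of stimulated T cells, was lower in Anergic than in Teff cells (log2 -2.10, adjusted p = 3.29e-10). Between Treg and Naive cells, where 19% of all genes rose and 13.9% fell, 13 rose and 1 was not called, led by Ikzf2, which encodes Helios (532 ± 8.10 CPM in Treg and 4.16 ± 1.27 in Naive cells, log2 7.01, adjusted p = 2.53e-20). Between Teff and Naive cells 12 rose and 1, again Nr4a1, fell, where 19.2% of all genes rose and 15.7% fell and Tox itself was not called.

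Of 16 loci linked to SATB1 in T cells 11 were tested, and 4 of the 16 also stand on the TOX-associated or the TCF1-associated list. In Anergic against Teff cells 7 rose and 2 fell (median log2 0.90 against 0.00), where 13.9% of all genes rose and 12.7% fell. Between Anergic and Naive cells 9 rose and 2 fell (median 2.96 against 0.01), where 25% of all genes rose and 21.3% fell. Foxp3, which defines regulatory cells, was higher in Anergic than in Teff cells (log2 4.60, adjusted p = 2.84e-14) at the low level given above. The list holds Foxp3 and Il2ra, the gene of CD25, on which cells were sorted, so their differences are not independent of the sort. Cd4, the coreceptor, averaged 1222 ± 69.3 CPM in Anergic, 466 ± 21.7 in Treg and 653 ± 30.9 in Teff cells, and 676 ± 46.3 in Naive cells (Anergic against Treg log2 1.39, adjusted p = 8.7e-14). Runx3, a repressor of Cd4 in the CD8 lineage, was lower in Anergic than in Teff cells (log2 -1.26, adjusted p = 7.34e-12).

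Of 20 other proteins with an HMG box 18 were tested, and between Anergic and Teff cells 2 rose, 1 fell and 15 were not called (median log2 0.00 against 0.00), where 13.9% of all genes rose and 12.7% fell. The risen and fallen became 0 and 3 with scaling by total counts alone. Without Anergic library 2, or without Teff library 1, 1 rose. Hmgb2, a chromatin protein abundant in dividing cells, was lower in Anergic than in Teff cells (log2 -0.62, adjusted p = 4.7e-06), at 87.4 ± 9.35 and 134.5 ± 13.1 CPM.

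The genes most like each of the 4 across the 12 libraries were ranked by the root mean square difference of log2 CPM, each centred on its own mean, among 7241 genes. A small value means a similar pattern over these libraries and says nothing of shared control. Pdk1, a kinase that restrains pyruvate dehydrogenase, was closest to Lef1, at 0.125. It averaged 54.5 ± 5.71 CPM in Anergic, 96.4 ± 5.21 in Treg and 83.3 ± 1.42 in Teff cells, and 248 ± 10.6 in Naive cells. Actn1, an actin crosslinker, followed at 0.144, then Pik3ip1, Cers6 and Klhdc1 at 0.195 to 0.236.

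Maml2, a coactivator of Notch, was closest to Tcf7, at 0.179, with 97.3 ± 4.08 CPM in Anergic, 46.1 ± 1.58 in Treg and 84.4 ± 8.37 in Teff cells, and 133 ± 4.78 in Naive cells. Paqr7, Clip1, F2rl1 and Sema4f followed at 0.257 to 0.303. Timp2, an inhibitor of matrix metalloproteinases, was closest to Tox, at 0.176, with 119 ± 7.81 CPM in Anergic, 49.4 ± 2.87 in Treg and 28.8 ± 0.983 in Teff cells, and 36.5 ± 3.48 in Naive cells. Usp6nl, Serinc5, Prkca and Slc41a1 followed at 0.206 to 0.268. Satb1 had no neighbour as close: Oas2, an interferon-induced enzyme, stood at 0.341, ahead of Tanc1 at 0.353 and Cd55 at 0.366. Among the 4 genes themselves, Lef1 and Satb1 were the closest pair (0.522) and Tox and Satb1 the farthest apart (1.77).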

How the data were processed

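Total RNA libraries were made with a stranded, low-input Takara kit (SMARTer Pico) and sequenced as paired reads of 50 bases, per the series design text. The deposited values are raw read counts per gene, which the authors made with Trimmomatic, HISAT2, SAMtools and featureCounts, per the series design text. The genome was GRCm38 (mm10), per the submitters' processing notes. Annotation and strand setting: not given in the sources used here. The kit keeps abundant noncoding RNA: 6 entries, mitochondrial and nuclear ribosomal RNA and Malat1 among them, held 29.4% to 40.4% of a library's counts, most in Anergic library 3.

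The test was edgeR 4.0.16 under R 4.3.3 (TMM scaling, filterByExpr, a mean per subset over all 12 libraries, quasi-likelihood F test, two-sided). The adjusted p covers 13393 genes. The SE is the log2 fold change divided by the square root of F. The common biological coefficient of variation was 0.0764. On data simulated from these libraries (13003 genes), 89% of 100 genes changed 2-fold and 95% of 100 changed 4-fold were found, with 7 false calls. Every gene was simulated with the common spread and no other gene differed between subsets, unlike these data, so the figures may be optimistic. Replicate libraries differed by more than counting noise, with a chi-square of 2.28 to 24.2 per degree of freedom. Ratios within a library used 0.5 added counts. Alternatives were DESeq2 1.42.0, limma voom (3.58.1), other scalings, filters and subsets of libraries. The 4 genes and the gene lists were chosen with earlier results of these data known. By rule, a list's 2 most significant members in each direction could be named per comparison, of which those shown are a selection, with beta-catenin and Axin2 in Anergic against Teff cells added after their values were seen; some members of the families, lists and nearest genes are not reported here. Positions, lengths and coding sequences come from GENCODE on GRCm38 and upstream windows from RefSeq.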

Additional observations from a re-analysis of the deposited data

How the results depend on the processing

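The counts of called genes in the 6 comparisons stayed within 1.5 times under each of 21 alternatives. Leaving out each library in turn gave 3083 to 3634 for Anergic against Teff cells, 3632 to 4362 for Anergic against Treg, 5564 to 6352 for Anergic against Naive, 3234 to 4111 for Treg against Teff, 3785 to 4600 for Treg against Naive and 4042 to 4871 for Teff against Naive cells. Scaling by total counts alone moved the median of all genes by more than 0.1 in 1 comparison, Anergic against Treg (-0.131). Of 504 alternative values of the 4 genes, 499 kept their direction and their side of the threshold and 5 passed it newly. These were Satb1 in Treg against Teff cells without a low count filter (-0.21, adjusted p = 0.0108), with only these 2 subsets (-0.21, adjusted p = 0.00971) and without Anergic library 1 alone of 12 single omissions (adjusted p = 0.00652; -0.25 to -0.17 over the 12), and Tox in Teff against Naive cells with the replicate number as a block (replicate block, -0.22, adjusted p = 0.0192) and without Teff library 1 alone of 12 (adjusted p = 0.00895; -0.31 to -0.15). The replicate numbers were not taken as pairs in the main test. Deviations of same-numbered libraries correlated at -0.0485 to 0.184, mostly positive and above 0.1 in 4 of 18 pairs. Whether same-numbered libraries share a batch was not tested. The block gave 3987 calls against 3566 for Anergic against Teff cells and called Tox4 there (0.17). It also gave more calls for Anergic against Treg (4610 against 4150), Anergic against Naive (6548 against 6193) and Treg against Teff cells (4343 against 3894). The same held for Treg against Naive (4796 against 4396) and Teff against Naive cells (5077 against 4670). All 78 alternative values of the 6 ratios stayed under an adjusted p of 0.05. Of the alternative values of the other genes examined singly, 6674 kept direction and side of the threshold, 130 lost their call, 1 passed newly and 5 reversed. Of the list counts, 5620 stayed within 1.5 times and 176 did not. The reversals were among genes not called: Tcf7l2 in Anergic against Naive cells without Naive library 1 (0.35, with all single omissions at -1.1 to 0.35), Tcf7l2 in Teff against Naive cells without Teff library 2 (-0.04), Naive library 2 (-0.31) or Naive library 3 (-0.18; range -0.31 to 0.73), and Tox4 in Treg against Naive cells without Naive library 2 (-0.033; range -0.033 to 0.065). Depth limits Tcf7l1, Tcf7l2 and Tox3, with at most 34 counts in a library.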

Other observations

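Transcription factors of effector T cells were examined as a further list of 12 genes, all tested. In Anergic against Teff cells 3 rose and 6 fell (median log2 -0.71 against 0.00 for all tested genes, of which 13.9% rose and 12.7% fell), with 1 rising without Anergic library 1 or without Teff library 3. In Anergic against Treg cells 9 rose and 2 fell, where 15.6% of all genes rose and 15.3% fell. In Anergic against Naive cells 10 rose and 1 fell, where 25% of all genes rose and 21.3% fell. In Treg against Teff cells 9 fell and 3 were not called, where 15% of all genes rose and 14.1% fell, and 1 rose with limma voom, with a replicate block, and without Treg library 1 or Teff library 1. In Treg against Naive cells 8 rose and 2 fell, where 19% of all genes rose and 13.9% fell. In Teff against Naive cells all 12 rose, where 19.2% of all genes rose and 15.7% fell. Tbx21, which encodes the Th1 factor T-bet, averaged 32.4 ± 5.45 CPM in Anergic, 3.6 ± 0.978 in Treg and 117 ± 1.89 in Teff cells, and 0.633 ± 0.847 in Naive cells. Id2, an inhibitor of E proteins, averaged 107 ± 4.77 CPM in Anergic, 14.7 ± 0.678 in Treg and 252 ± 0.386 in Teff cells, and 30.9 ± 1.44 in Naive cells. Both were lower in Anergic than in Teff cells (log2 -1.85 and -1.23, edgeR adjusted p = 4.42e-11 and 7.13e-14).

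The first Anergic library differed from the other two in several of these genes at once. It had the lowest Tcf7, Lef1 and Satb1 and the highest Tox of the 3. Its Il21 level was 69.9 CPM, with 45.9 and 41.5. Pdcd1 had 142 CPM there, with 115 and 121 in the others, and the 11 follicular helper markers summed to 1009 CPM, with 888.5 and 874.3. Over all genes, Anergic libraries 1 and 2 were the closest pair of the subset (chi-square per degree of freedom 10.7), and library 3 lay farther from both (15.9 from library 1 and 24.2 from library 2). Whether 1 library stands apart was not tested.

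The 8 B cell markers summed to 408 to 498 CPM in Treg libraries. That sum was 220 to 283 in Anergic, 180 to 197 in Teff and 198 to 226 in Naive libraries. Ighm gave most of the Treg sum (443 ± 45.1 CPM in Treg cells). Only 4 of the markers were tested. In Treg against Teff cells 2 rose (Ighm and Cd79b), 1 fell (Cd22) and 1 was not called. The list median log2 was -0.04 there against 0.01 for all tested genes, of which 15% rose and 14.1% fell.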
